A study of Mus musculus with 12 samples.

Results

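The regions described here are 340 stretches of the mouse genome that carried a called peak of 5-hydroxymethylcytosine (5hmC) in all 3 libraries from stressed hippocampus and in none of the 3 libraries from unstressed hippocampus, and that touch a promoter or an exon. They were found by pooling the deposited peaks of the 6 libraries on chromosomes 1 to 19 and joining peaks that share at least 1 bp, which gave 74401 merged regions. Of these, 847 were stress-only (1.14%), and 340 of the 847 touched a base within 1 kb of a transcript start or an exon of the transcript table deposited with the control RNA. A total of 17178 merged regions lay at promoters or exons by the same rule, so the 340 make up 1.98% of them. The regions were selected on the presence of peaks in the stress libraries and their absence in the control libraries, so their difference between the groups is the rule itself and is given as a description without a test.

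5hmC is made from 5-methylcytosine by the TET dioxygenases, and it is both an intermediate on the way to unmethylated cytosine and a lasting mark of its own. Neurons hold more of it than most cell types, chiefly within the bodies of transcribed genes, while the CpG-dense starts of active genes tend to be poor in it. Restraint is a standard acute psychological stressor of rodents that raises circulating glucocorticoids, and the hippocampus is rich in their receptors.

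All mice were male C57BL/6 (the series' design text gives a C57BL/6J background), with an age of 7 weeks in the protocol and of postnatal day 28 in the sample tags. The stress group consisted of 6 mice that were held in a 50 ml vial for 30 min, beginning 2 h after lights on, and then kept singly for 1 h. The control group consisted of 5 naïve mice that were removed from their cage when the restraint of the others began. Both groups received brief isoflurane before dissection. Control tissue was thus taken earlier in the day than stress tissue, and the hour of single housing belongs to the stress group alone, so restraint, single housing and time of day cannot be told apart. DNA from micropunched hippocampus of 2 mice was pooled per library, or of 1 mouse for a single library, sonicated to 300 bp, and fragments with 5hmC were captured through an azide-glucose tag and biotin. Each library is labelled as having between 25000000 and 35000000 uniquely mapped reads of 50 nt, without its own number. Lists held 15177, 27784 and 31636 peaks on chromosomes 1 to 19 in stress replicates 1, 2 and 3, and 17176, 27897 and 16303 in control replicates 1, 2 and 3. The covered length was 16.6, 33.6 and 38.1 Mb in the stress lists and 16.8, 30.1 and 16.7 Mb in the control lists. The lowest score was 50 in every list, and a place without a listed peak may still hold 5hmC. Stress replicate 1 had the shortest stress list and control replicate 2 had the longest control list, and both bear on the counts below. RNA of the same mice was summarised by the authors in 1 table for each group, as FPKM (fragments scaled to transcript length and to the total), so RNA differences have no replicate check. By RNA, 8 markers of hippocampal neurons summed to 794 FPKM in control and 879 FPKM in stress, with 6 of the 8 higher in stress and most of the sum from Snap25 (472 and 547 FPKM). The 4 oligodendrocyte markers summed to 1282 and 1116 FPKM and the 3 endothelial markers to 16.6 and 12.2 FPKM, each marker being lower in stress. The 4 astrocyte markers summed to 131 and 151 FPKM, all higher in stress, and the 4 microglial markers to 18.9 and 18.3 FPKM. The 4 choroid plexus markers, of tissue that borders the hippocampus, summed to 227 FPKM in control and 62.7 FPKM in stress, with all 4 lower in stress and none at 0. In such bulk tissue, fewer cells of a type and less of a molecule per cell cannot be told apart.

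Of the 340 stress-only regions, 77 touched a promoter and 263 touched an exon but no promoter. Over all 17178 regions at promoters or exons, 3634 touched a promoter and 13544 an exon only, a similar split. The mirrored set, with a peak in all 3 control lists and no stress list, had 59 regions at promoters or exons (0.343% of the 17178), 20 of them at promoters and 39 on exons. Promoter or exon regions made up 40.1% of the 847 stress-only regions, 21.4% of the 276 control-only regions and 23.1% of all merged regions. Among merged regions found in all 6 lists the share was 35.2%, close to that of the stress-only regions.

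Longer regions touch exons and promoters more readily, and the stress-only regions were longer, with a median of 1448 bp against 1091 bp for the control-only regions at promoters or exons. Within regions of 1000 to 1500 bp the share at promoters or exons was 38.0% for stress-only regions, 18.8% for control-only regions and 24.4% for all regions. Below 1000 bp it was 25.6%, 21.1% and 17.8% in the same order. At 2000 bp and above it was 57.6%, 36.8% and 39.8%. The stress-only share was thus the highest of the 3 in each of the 4 length classes. Single peaks of the stress lists also touched promoters or exons more often, at 25.8%, 26.7% and 26.6% in stress replicates 1, 2 and 3. The shares were 21.0%, 22.9% and 20.2% in control replicates 1, 2 and 3. The stress peaks were also longer, with medians of 976, 1062 and 1046 bp in stress replicates 1, 2 and 3. In control replicates 1, 2 and 3 they were 896, 965 and 935 bp, and the shares of single peaks were not matched for length. The peaks of the 340 regions are among those of the stress lists, at 1.07% to 2.24% of a list, and none is in a control list. Their regions lie at promoters or exons by the rule, so part of the gap in single-peak shares is the rule itself. The shares without these peaks were not taken.

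**Figure D1:**
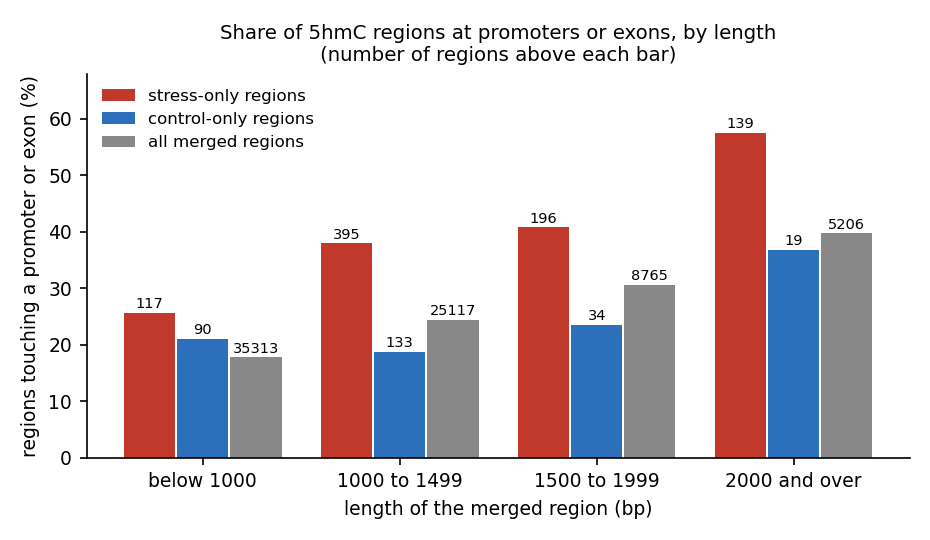
The vertical axis gives the percentage of merged 5hmC regions that touch a promoter or exon, and the horizontal axis gives 4 classes of region length in bp, with stress-only regions in red, control-only regions in blue and all merged regions in grey. Numbers above the bars are the regions in each class, and the red bar is the highest in each class, from 25.6% below 1000 bp to 57.6% at 2000 bp and above.

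The rule sorts regions by whole lists, and many regions missed it by 1 list. At promoters or exons, 1393 regions had a peak in 2 stress lists and no control list, and in 899 of these the missing list was stress replicate 1. Another 528 regions had a peak in all 3 stress lists and in 1 control list, and in 405 of these that list was control replicate 2. A further 425 regions had a peak in all 6 lists. The list that kept a region out was therefore mostly the shortest stress list or the longest control list.

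The promoters show where the regions sat against transcript starts. Those of 6 genes are printed from the RefSeq promoter table (build GRCm38.p6) as the 250 bases before the start, 5′ to 3′ on the gene's strand, with each CpG, the site at which 5hmC mostly occurs, in capitals. The deposited coordinates are in build mm9 and are not comparable with these positions. The first pair had the transcript start inside a stress-only region, the second pair had the region just downstream of the start, and the last pair had it upstream. Nif3l1 encodes a conserved NIF3-like protein (chr1:58444901-58445150, plus strand), and Lrrc14b a leucine-rich repeat protein (chr13:74364001-74364250, minus strand). Rcor2 encodes a partner of the demethylase LSD1 (chr19:7267144-7267393, plus strand), and Rps6ka4 the kinase MSK2, which phosphorylates histone H3 and CREB (chr19:6840628-6840877, minus strand). Nfic encodes a nuclear factor I transcription factor (chr10:81427174-81427423, minus strand), and Med13l a subunit of the Mediator kinase module (chr5:118560469-118560718, plus strand).
Nif3l1: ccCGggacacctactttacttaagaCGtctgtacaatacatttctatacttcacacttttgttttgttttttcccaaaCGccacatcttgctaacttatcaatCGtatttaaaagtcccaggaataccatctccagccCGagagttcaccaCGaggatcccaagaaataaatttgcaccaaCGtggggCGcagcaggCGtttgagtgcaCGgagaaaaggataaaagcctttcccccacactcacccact
Lrrc14b: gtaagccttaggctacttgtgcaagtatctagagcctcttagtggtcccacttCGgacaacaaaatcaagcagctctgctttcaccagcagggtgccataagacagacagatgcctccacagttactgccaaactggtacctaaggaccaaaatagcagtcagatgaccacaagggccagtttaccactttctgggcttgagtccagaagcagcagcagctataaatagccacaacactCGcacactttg
Rcor2: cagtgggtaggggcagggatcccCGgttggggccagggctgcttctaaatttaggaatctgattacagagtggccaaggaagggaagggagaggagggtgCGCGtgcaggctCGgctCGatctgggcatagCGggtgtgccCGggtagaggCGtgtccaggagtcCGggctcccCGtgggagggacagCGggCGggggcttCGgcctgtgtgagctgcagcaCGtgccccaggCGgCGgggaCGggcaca
Rps6ka4: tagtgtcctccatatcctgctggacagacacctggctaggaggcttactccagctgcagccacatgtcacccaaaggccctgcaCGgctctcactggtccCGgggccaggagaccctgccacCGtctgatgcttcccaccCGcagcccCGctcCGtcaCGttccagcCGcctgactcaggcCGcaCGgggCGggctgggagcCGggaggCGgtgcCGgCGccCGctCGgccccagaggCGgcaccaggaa
Nfic: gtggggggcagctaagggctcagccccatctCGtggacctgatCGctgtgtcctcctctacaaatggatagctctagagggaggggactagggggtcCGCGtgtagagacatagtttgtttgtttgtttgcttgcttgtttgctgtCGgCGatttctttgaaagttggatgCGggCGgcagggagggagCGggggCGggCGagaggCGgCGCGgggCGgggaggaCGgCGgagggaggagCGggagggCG
Med13l: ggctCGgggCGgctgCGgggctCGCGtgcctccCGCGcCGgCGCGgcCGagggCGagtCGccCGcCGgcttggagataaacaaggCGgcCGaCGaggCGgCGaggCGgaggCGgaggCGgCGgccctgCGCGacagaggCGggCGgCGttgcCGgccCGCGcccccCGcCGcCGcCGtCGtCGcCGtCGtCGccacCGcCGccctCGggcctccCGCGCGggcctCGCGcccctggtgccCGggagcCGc

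The printed stretches held 10 CpG in Nif3l1 and 2 in Lrrc14b, where the region covers the start, and 17 in Rcor2, 18 in Rps6ka4, 19 in Nfic and 51 in Med13l, where it lies beside it. Of the 79 genes whose promoters were touched, 60 were matched in the table, and the unmatched ones include 5 microRNA and 2 small nucleolar RNA genes. Among the 72 with a transcript of at least 200 nt, 83.3% were matched. Over the 79 windows of the matched genes, some of which have several starts, from 250 bases before to 50 bases after the start, the median CpG count was 16, against 19 for promoters of control-only regions, 22 for those of regions in all 6 lists and 7 over all 32851 windows of the table. The value for stress-only regions was thus above that of all promoters and below that of both other sets. It was 7 for the 10 matched genes with the start inside the region and 18 for the 50 with the start beside it. The GC box GGGCGG, searched on both strands, was in 57.0% of the windows of the touched genes, 65.2% of those at control-only regions, 65.9% of those at regions in all 6 lists and 35.7% of all windows. The E-box CACGTG was in 16.5% of the windows of touched genes, in 3 of 23 windows at control-only regions, in 9.09% of those at regions in all 6 lists and in 7.15% of all windows. The cAMP response element TGACGTCA was in the window of 1 gene, Trip6, an adaptor at focal adhesions, and in 1.79% of all windows. The AP-1 site TGANTCA was in 7.59% of the windows of touched genes and in 7.81% of all windows. These are letters in a window and no measure of binding.

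Most promoter regions lay beside the start. Of the 77, 16 held a transcript start (20.8%), 36 lay downstream of it and 25 upstream. Some starts inside a region were those of microRNA genes, with the region also on exons of another gene. The region at Mir7226 lay on exons 30 to 33 of 33 of Ptprf, and that at Mir671 on exon 4 of 4 of Chpf2. Of the 3634 merged regions at promoters, 21.8% held a start, as did 8.59% of the 128 promoter regions found in all 6 lists and 2 of the 20 control-only ones. At the start itself 20.8% of the stress-only promoter regions covered the base, and at 1200 bp downstream 49.4% did. At 1200 bp downstream the share was 40.4% for all promoter regions and 65.6% for those in all 6 lists. The 1 kb rule itself gathers regions near its edges on both sides. The region closest to the limit lay 996 bp upstream of Med13l. Just outside, a region 1004 bp from the start of Pmpcb, which encodes a mitochondrial processing peptidase subunit, was counted by its exon, and one 1172 bp from the start of Jag2, which encodes a Notch ligand, was intronic and was not counted.

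**Figure D2:**
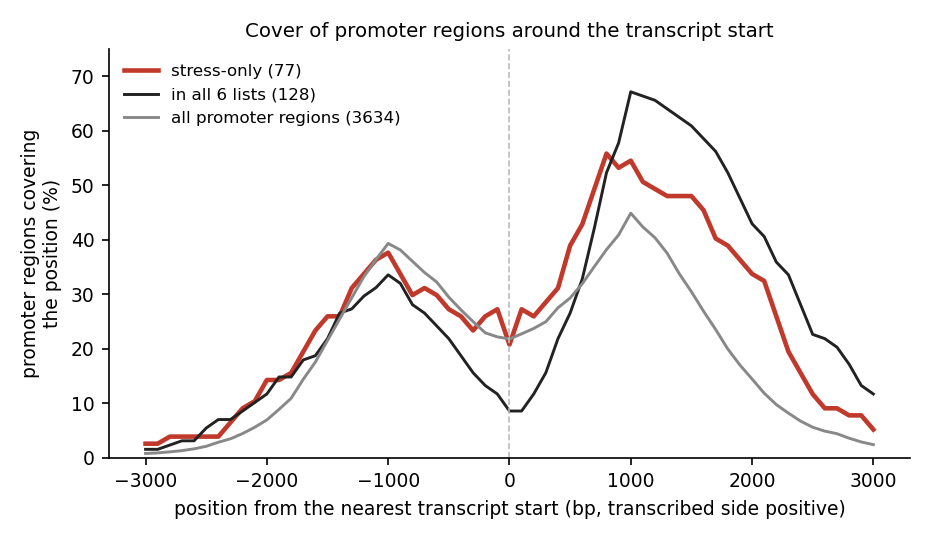
The horizontal axis is the position from the nearest transcript start in bp with the transcribed side positive, and the vertical axis is the percentage of promoter regions covering that position, for 77 stress-only regions (red), 128 regions in all 6 lists (black) and 3634 promoter regions in all (grey). The red curve stands at 20.8% at the start and 49.4% at 1200 bp downstream, and the black curve falls to 8.59% at the start. At 1200 bp downstream the black curve stands at 65.6% and the grey curve at 40.4%.

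Genes whose start lay inside a stress-only region were mostly little transcribed. Of these 16 genes, 2 had a mean of at least 1 FPKM over both tables, Nif3l1 and Lrrc14b. Among the others were the olfactory receptor genes Olfr222 and Olfr279, the nucleoside transporter gene Slc28a1, the placental growth factor gene Pgf, the sphingosine kinase gene Sphk1 and 5 microRNA or small nucleolar RNA genes, which such RNA libraries measure poorly. Where the region lay only beside the start, 36 of 63 genes had a mean of at least 1 FPKM (57.1%). Over all promoter regions of the series the corresponding shares were 21.5% of 818 genes and 58.6% of 2870 genes, the same order. Olfr222 had the strongest peaks among the regions holding a start, at the 98.9th, 80.6th and 98.3rd percentile of stress lists 1, 2 and 3.

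Percentiles here rank a peak's score within its own list, since the scores are the authors' own and their scale can differ between lists. Every one of the 340 regions had exactly 1 peak in each stress list. The median percentile was 57.8 in stress replicate 1, 64.3 in stress replicate 2 and 70.7 in stress replicate 3. At promoters the medians were 59.1, 65.3 and 81.5, and on exons they were 57.4, 64.0 and 67.9. Most regions therefore rested on peaks of middling rank in at least 1 library. A score under 60, where the lowest deposited score was 50, was found in at least 1 stress list for 195 of the 340. By list it was found for 124, 85 and 66 regions in stress replicates 1, 2 and 3. Of the 59 control-only regions, 39 had such a score in at least 1 control list. The share of all listed peaks with a score under 60 was not taken. A percentile of at least 50 in all 3 lists was reached by 110 regions and one of at least 75 by 28. The bases shared by the 3 stress peaks of a region had a median of 923.5 bp.

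**Figure D3:**
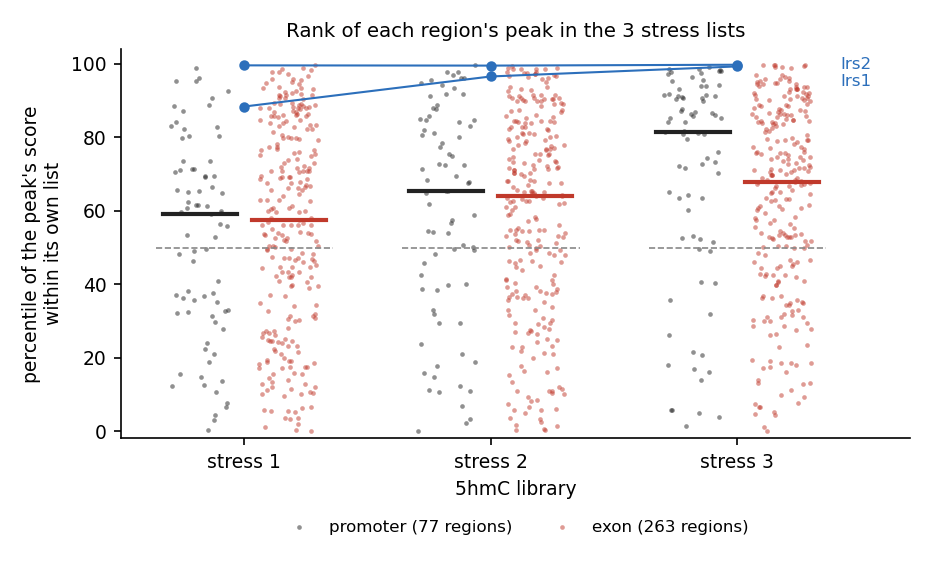
Each point is 1 of the 340 regions, placed by the percentile of its peak's score within the list of stress replicate 1, 2 or 3 (vertical axis), with 77 promoter regions in black, 263 exon regions in red, medians as bars and the 50th percentile of each list dashed. The spread runs over nearly the whole range in each list, and the blue lines follow Irs2, above the 99th percentile in all 3, and Irs1.

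The surroundings of the regions carried peaks of both groups. The nearest control peak lay a median of 10598.5 bp away, and 20 of the 340 had one within 1 kb. Within 5 kb, a further peak of stress replicates 1, 2 and 3 was found beside 6.76%, 12.6% and 17.4% of the regions, and a peak of control replicates 1, 2 and 3 beside 7.94%, 12.4% and 11.2%. Outside the regions themselves, the host genes, meaning the 379 genes whose promoter or exon was touched, carried stress peaks in 39.8%, 50.7% and 54.9% of cases and control peaks in 40.4%, 49.6% and 39.6%. Over all 22835 genes, with no region set aside, the shares with a peak were 25.3%, 36.3% and 39.0% in stress and 25.1%, 34.4% and 24.0% in control lists. A control peak elsewhere in the body was found in 222 hosts in at least 1 list and in 108 in all 3. No peak elsewhere in any of the 6 lists was found for 124 hosts. The share of hosts with a peak elsewhere thus ranged from 39.8% to 54.9% in stress and from 39.6% to 49.6% in control lists, which overlap.

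The strongest regions by their lowest rank lay at genes of several kinds, and the first was in Irs2. Irs2 and Irs1, which was also among the 15 strongest, encode insulin receptor substrates, the adaptors that pass the signal of the insulin and IGF1 receptors to PI3 kinase. The Irs2 region (chr8:11004304-11006456, mm9) lay on exon 1 of 2, and its peaks stood at the 99.6th, 99.5th and 99.8th percentile in stress replicates 1, 2 and 3. The nearest control peak was 9417 bp away. The Irs1 region (chr1:82285093-82286494) lay wholly on exon 1 of 2, at the 88.4th, 96.6th and 99.3rd percentile, with the nearest control peak 6016 bp away. Elsewhere in the body of Irs2 peaks were listed in stress replicate 3 and in all 3 control replicates, so 5hmC peaks on this gene as such were not limited to stress. The body of Irs1 held 1 other peak in stress replicate 2 and 1 in control replicate 1.

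Traf4, an adaptor of TNF receptor family signalling, held a region over its last 5 exons (chr11:77973207-77975335) with percentiles of 90.5, 99.0 and 99.8. Stk4, the Hippo pathway kinase MST1, had percentiles of 92.7, 84.3 and 92.4 on exons 8 and 9. Dhx32, a DEAH-box helicase gene, stood at 91.5, 97.1 and 93.3. These genes differ widely in RNA, from 0.34 FPKM in control for Traf4 to 5.41 FPKM for Stk4. Arid4a, whose product binds the retinoblastoma protein, had percentiles of 85.8, 98.6 and 87.9 on exon 20 of 24. Elf2, an ETS transcription factor gene, had 84.4, 91.4 and 84.1 over its last exons. The other regions in this group of 15 were in Tmem198b, Rrp1 beside Mir6907, Tmem151a, Samd10, Mtus2, Hps6, Zfp839 and Pla2g2d. Hps6, a single-exon gene for a subunit of the lysosome-related organelle complex BLOC-2, was covered for 2182 bp of its exon and had a control peak only 681 bp away. Its region began 514 bp downstream of the start and so counted as a promoter region.

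The exon regions mostly touched internal exons. Of the 263, 205 touched an internal exon (77.9%) and 80 a last exon (30.4%), while over all 13544 merged regions on exons the shares were 78.4% and 26.2%. First exons are nearly absent because they lie by the start and count as promoters. A single exon was touched by 165 of the 263 regions and 3 or more exons by 51, up to 12 exons. The median region had 394 exon bases, 26.1% of its length, and the rest was intron. The tables carry no coding annotation, so coding and untranslated exon parts were not separated.

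Some of the longest regions nevertheless filled single long exons. The longest, 5374 bp in the zinc finger gene Zfp462 (chr4:55021417-55026790), had 5305 bases on exon 3 of 13, and its percentiles were 24.9, 84.0 and 60.3. Akap6 encodes a scaffold for protein kinase A at the nuclear envelope. Its region of 3235 bp (chr12:54240522-54243756) had 3234 bases on exon 13 of 14, with percentiles of 64.1, 90.4 and 46.5. Polrmt, which encodes the mitochondrial RNA polymerase, had a region of 4102 bp across at least 6 exons. The long regions in Uvrag (autophagy and endosome traffic) and Ap3b1 (a subunit of the AP-3 adaptor of lysosomal sorting) had only 92 and 139 exon bases and were mostly intronic. The other regions among the 10 longest were at Smarcd3 with Chpf2 and Mir671, and in Sept4, Frmd4a, Ankrd23 and Dido1.

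Chromatin genes among the hosts included writers and erasers of histone marks. Of 75 histone-modifying enzyme genes in a list made for this work, 5 were hosts, compared with 1.66% of the 22835 genes on chromosomes 1 to 19. A promoter or exon region of any kind was found for 59 of the 75 and for 10785 of the 22835 genes. Crebbp, the acetyltransferase CBP that CREB recruits, was 1 of 3 genes with 2 regions each. Its larger region (chr16:4083820-4086201) lay on the last of 31 exons at the 14.4th, 98.8th and 99.3rd percentile, and the smaller (chr16:4101250-4102144) on exon 20 at 36.7, 70.4 and 0.15. The rank thus varied over nearly the full range between stress libraries. Hdac4, a class IIa histone deacetylase that shuttles with neuronal activity, had percentiles of 95.9, 11.1 and 93.6 on exon 23 of 26. Kat2a (the acetyltransferase GCN5) had 43.5, 50.4 and 55.6, and Kmt2c (a methyltransferase of histone H3 lysine 4) had 70.8, 33.0 and 68.3. At the promoter of Suv420h1, which encodes a methyltransferase of histone H4 lysine 20, they were 73.7, 61.9 and 20.6.

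Of 64 genes of chromatin remodelling and polycomb complexes 3 were hosts, where 1.66% of all genes were hosts. These were Smarca4 (the BRG1 ATPase of the BAF complex), Smarcd3 (a BAF subunit) and Rcor2. Of 27 genes of DNA methylation and 5hmC turnover 1 was a host. Dnmt3a, which encodes a de novo DNA methyltransferase, held a region of 2646 bp (chr12:3872472-3875117) over exons 5 and 6 of 23 at the 15.9th, 53.0th and 87.5th percentile. No TET gene was a host, and at 1.66% so few genes would hold under 1.

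The lists of genes that answer glucocorticoids or neuronal activity had no host, where 1.66% of all genes were hosts, a share under 1 gene in lists of this size. Of 39 glucocorticoid and stress hormone genes 0 held a stress-only region at a promoter or exon, and of 46 immediate early and activity-regulated genes 0 did. Their median RNA differences, over the 33 and 39 of them that averaged 1 FPKM or more, were 0.35 and 0.17 on the log2 scale, against 0.08 for all genes. Of the 39 glucocorticoid and stress hormone genes 24 had some promoter or exon region in the series, as had 32 of the 46. Klf9, a glucocorticoid-induced transcription factor gene, was a host of a control-only region.

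Small GTPase regulators were the list with the most hosts, 8 of 124 genes, where 1.66% of all genes were hosts. Any promoter or exon region was found for 111 of the 124 and for 10785 of the 22835 genes on chromosomes 1 to 19. Dock4, which encodes an exchange factor that activates Rac, had a region on exon 13 of 53, with percentiles of 53.6, 12.1 and 82.5. Acap3, Arfgap3 and Asap1 encode GTPase-activating proteins for ARF, and Asap1 was also a host of a control-only region elsewhere. Their percentiles ran from 9.64 to 84.5 over the 3 genes and 3 lists. Arhgef25 encodes a guanine nucleotide exchange factor and had its region 828 bp upstream of the start, at 71.0, 29.4 and 91.0. That region touched no exon of Arhgef25 and lay on exons 5 and 6 of 6 of the neighbouring gene Dtx3. Further hosts were Arhgap21 (a GTPase-activating protein gene, listed at 0 FPKM in both tables) and Tbc1d8 (of the TBC domain family of Rab GTPase-activating proteins).

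Lists of synaptic genes had shares of hosts around the 1.66% of all genes. Of 57 genes of glutamate receptors and the postsynapse 1 was a host, Grid1, which encodes the delta 1 glutamate receptor subunit (percentiles 34.0, 62.8 and 30.0). Of 58 genes of presynaptic release 2 were hosts, the synaptotagmin genes Syt3 (24.6, 84.4 and 82.4) and Syt6 (87.1, 40.5 and 36.8). Of 26 genes of inhibitory transmission 0 were hosts. Of 73 genes of voltage-gated and related channels 2 were hosts, Cacna1a, which encodes the pore of P/Q-type calcium channels (18.4, 4.98 and 17.3), and Kcnj10, the glial potassium channel Kir4.1 (75.9, 79.0 and 46.1). All of these regions lay on exons.

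Among cytoskeleton and motor genes 3 of 96 were hosts, where 1.66% of all genes were hosts. Kif1a, which encodes a kinesin that carries synaptic vesicle precursors along axons, had its region 519 bp upstream of the start (chr1:94998961-95000456) at the 69.4th, 87.7th and 86.0th percentile. It was the promoter host with the most RNA, at 64.1 FPKM in control and 74.0 FPKM in stress. The others were Kif21a, another kinesin gene, and Add3, which encodes adducin gamma of the spectrin and actin skeleton. Of 83 membrane traffic genes 4 were hosts, namely Sec24c and Sec16b of COPII vesicles, Trappc10 of a TRAPP tethering complex and Vps8 of the CORVET complex.

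Of 108 signalling kinase and phosphatase genes 3 were hosts, where 1.66% of all genes were hosts. Prkd1 and Prkd3 encode protein kinase D isoforms, which diacylglycerol activates, and Akt2 encodes a kinase that acts below PI3 kinase. Prkd1 held 2 regions, on its last exon (88.1, 16.0 and 44.4) and on exons 6 and 7 (47.0, 43.8 and 71.0). The third gene with 2 regions was Gtpbp1, a GTP-binding protein gene. Of 151 transcription factor genes of neural tissue 4 were hosts. Bcl11a, a zinc finger repressor gene, had the highest ranks of these at 91.4, 95.0 and 77.0 on its exon 4. Foxo3, which encodes a forkhead factor that AKT keeps out of the nucleus, had 11.2, 9.22 and 79.6. The other 2 were Foxk2 and Nfic.

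The other lists had 1 to 3 hosts or none, where 1.66% of all genes were hosts. Of 45 cAMP and protein kinase A genes 1 was a host (Akap6), of 86 axon guidance and adhesion genes 1 (the receptor phosphatase gene Ptprf), of 84 RNA processing and translation genes 2 (Adarb2 and Hnrnpm) and of 101 ubiquitin system genes 3 (Fbxl19, Trim9 and Ube2e2). None of the 28 myelin, 20 astrocyte, 19 microglia and 20 vessel genes in these lists was a host, though the glial gene Kcnj10, counted with the channels, was. At 1.66% a list of such a size would hold under 1 host. Of 15 choroid plexus and ependyma genes 1 was a host, the bicarbonate transporter gene Slc4a5. Outside the lists stood most hosts, 335 of the 379, which were in none of the 23 lists. These counts have no test, and long genes can host more regions. The median body was 24.9 kb for hosts and 14.4 kb for all genes. The share of promoter or exon regions that were stress-only ran from 1.32% on chromosome 5 to 2.91% on chromosome 12, with 10 to 31 regions per chromosome.

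The RNA differences of host genes were centred where those of all genes were. Of the 379 hosts 267 had a mean of at least 1 FPKM (70.4%), against 46.2% of all genes and 63.2% of the hosts of any promoter or exon region. On the log2 scale with 1 added to each FPKM, which understates the change of low genes, the median difference of stress over control was 0.09 for these hosts and 0.08 for the 11071 genes kept. Of the 267, 0 were at least 2-fold higher in stress and 0 at least 2-fold lower, against 0.307% and 0.289% of all genes kept. These zeros rest on the added 1: with 0.1 added instead, 1 host was at least 2-fold higher and 2 were at least 2-fold lower. At least 1.25-fold higher were 16 (5.99%) against 7.71% of all genes, and at least 1.25-fold lower were 9 (3.37%) against 3.52%. The host shares therefore stood near or below those of all genes. The median was 0.04 for the 38 promoter hosts, 0.10 for the 229 exon hosts and 0.12 for the 44 kept hosts of control-only regions.

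**Figure D4:**
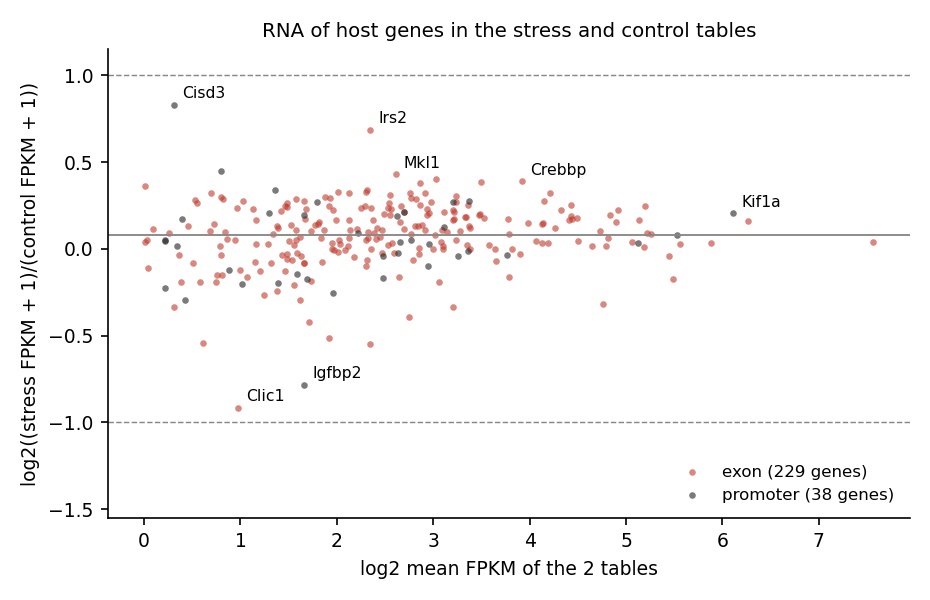
Each point is 1 of the 267 host genes that averaged 1 FPKM or more, with the log2 mean FPKM of both tables on the horizontal axis, the log2 difference of stress over control (1 added to each FPKM) on the vertical axis, exon hosts in red, promoter hosts in black, the median of all genes as a solid line and 2-fold changes dashed. The points centre near 0.08, no gene reaches a 2-fold change on this scale, and Cisd3 (0.83) and Clic1 (-0.91) are the extremes.

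Irs2, the gene with the strongest region, also had the second highest RNA difference among the hosts. It was listed at 3.66 FPKM in control and 6.50 FPKM in stress, a log2 difference of 0.69. Cisd3, which encodes a mitochondrial iron-sulphur protein and whose region began 207 bp downstream of the start, was at 0.61 and 1.87 FPKM (0.83). Irs1, by contrast, was at 2.78 and 2.91 FPKM (0.05). Further hosts with higher RNA in stress were Lrrc14b (0.45), Mkl1, which encodes an actin-regulated coactivator of serum response factor (0.43), the kinase genes Mast2 (0.40) and Nuak1 (0.38), Crebbp (0.39) and Safb2 (0.38). Crebbp was listed at 12.96 FPKM in control and 17.32 FPKM in stress. None of these differences has a replicate check.

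Clic1, which encodes a chloride intracellular channel protein, was the lowest, at 2.87 FPKM in control and 1.05 FPKM in stress (-0.91). Igfbp2, which encodes an IGF-binding protein also made in choroid plexus, was at 4.25 and 2.05 FPKM (-0.78), with its region 922 bp upstream of the start at the 40.8th, 81.2nd and 86.6th percentile. The choroid plexus markers, at 227 FPKM in control and 62.7 FPKM in stress, were lower in the same table, and their part in the RNA values of Igfbp2 and Clic1 was not tested. Lower RNA was also listed for Mrpl54 (-0.55), a mitochondrial ribosome gene, Mettl22 (-0.54), Slc50a1 (-0.52), Farsa (-0.42), Pcdhga11 (-0.39) and Syt6 (-0.34). Pcdhga11 shares its constant exons, where the region lies, with the other genes of the gamma protocadherin cluster, and that 1 region accounts for 23 of the 379 hosts. Among the other promoter hosts of at least 10 FPKM, differences were near 0 for 4 genes, with Arhgef25 at 0.08, Ola1 at 0.03, Dcaf11 at -0.01 and Rusc1 at -0.04.

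The counts depended on the libraries and on the length of the lists. When each list was limited to an equal number of its highest-scoring peaks, there were 243 stress-only and 72 control-only regions at promoters or exons. Bases were shared with these by 177 of the 340 stress-only and 33 of the 59 control-only regions. With the same covered length per library, an alternative chosen after seeing the data, there were 177 stress-only and 82 control-only regions, and 130 of the 340 were among those found. Stress-only regions thus outnumbered control-only ones by ratios of 5.76 as reported, 3.38 with equal numbers of peaks and 2.16 with equal covered length. Leaving out stress replicate 1, 2 or 3 gave 1239, 617 or 547 stress-only regions, and leaving out control replicate 1, 2 or 3 gave 400, 746 or 400.

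**Figure D5:**
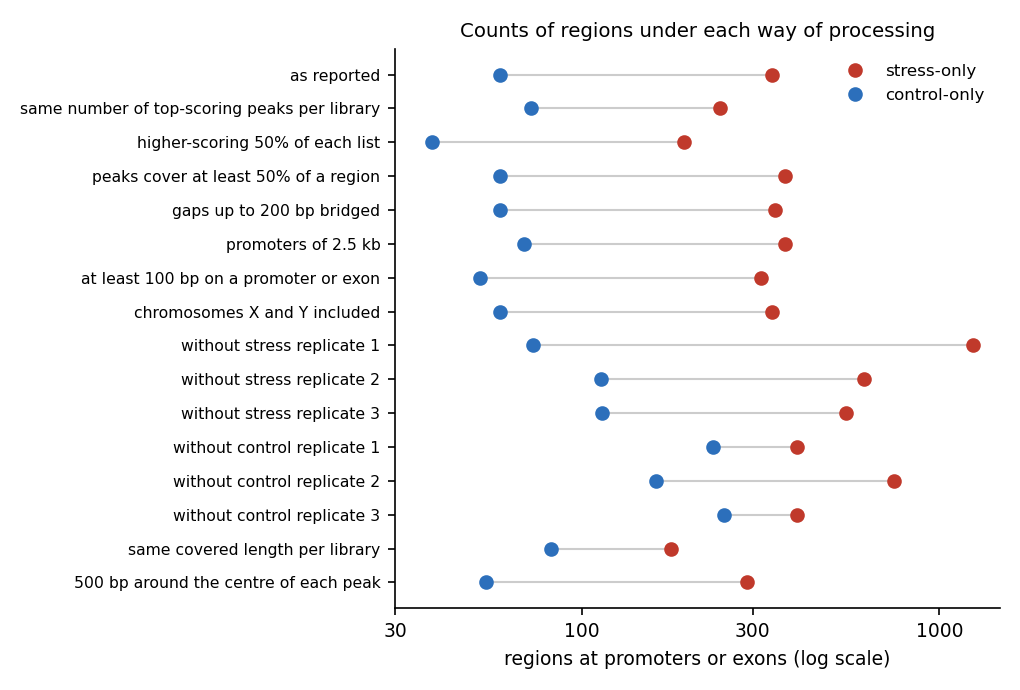
The horizontal axis, on a log scale, gives the number of stress-only (red) and control-only (blue) regions at promoters or exons, and each row of the vertical axis is 1 way of processing the lists, with the reported counts of 340 and 59 on top. Stress-only regions outnumber control-only regions in each row, and the gap narrows most without control replicate 1 or 3 and with the same covered length per library.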

How the data were processed

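The authors deposited their called 5hmC peaks as 1 list per library, each peak with a score on a scale of their own. Per the submitters' processing notes, Bowtie 0.12.9 was used, and edgeR is also named, as are TopHat 1.0.12, Cufflinks 2.1.1 and Cuffdiff 2.1.1. Positions are in build mm9. Use of an input library is not given in the sources. The RNA values the authors deposited are FPKM per transcript, in a single table for each group, without counts. The depth of single libraries is unknown, so no counting interval is given.

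Groups follow the sample titles. Peaks on chromosomes 1 to 19 were merged where they shared at least 1 bp, and each region was called promoter where it came within 1 kb of a start, and otherwise exon, intron or intergenic. Scores were ranked only within a list. FPKM of isoforms were summed per gene, a pseudocount of 1 was added, and a gene was kept if its mean over both tables was 1 FPKM or more. Python 3.11.15 with numpy 2.4.6, pandas 2.3.3 and matplotlib 3.10.9 was used. The calling of stress-only regions was checked with simulated peaks added to the stress lists on exons, away from real peaks. The other steps were not checked in this way. No test was run, since the rule used the contrast of the 5hmC lists and RNA has 1 table per group.

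The regions and gene lists were chosen with earlier results of these data known. The rule for named genes took hosts of 2 or more regions, the 15 regions with the highest lowest percentile, the 10 longest, promoter hosts of at least 10 FPKM, the 8 highest and 8 lowest RNA differences, hosts in the lists and regions at the 1 kb limit. Some genes under this rule are not reported here. Genes with printed promoters and those holding a start were picked with their values in view. The alternatives were equal numbers of peaks, the higher-scoring 50% of each list, at least 50% of a region covered, gaps of 200 bp bridged, promoters of 2.5 kb, at least 100 bp touched, chromosomes X and Y, and each library left out. RNA was recomputed with a pseudocount of 0.1, no minimum, centring, the top isoform, genes of 300 nt or longer that neither table lists at 0, and hosts with at least 100 bp touched. Equal covered length, 500 bp around peak centres and 1 host per region were added after seeing the data.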

Additional observations from a re-analysis of the deposited data

How the results depend on the processing

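Stress-only regions outnumbered control-only regions at promoters or exons under each alternative run. With the higher-scoring 50% of each list the counts were 193 and 38, and 110 of the 340 regions were found again. With the same covered length per library, an alternative added after seeing the data, they were 177 and 82. Leaving out single libraries gave 400 to 1239 stress-only and 73 to 249 control-only regions. For control-only regions the values were 73, 113 and 114 without stress replicates 1, 2 and 3, and 233, 161 and 249 without control replicates 1, 2 and 3. For stress-only regions the larger moves were 1239, 617 and 547 without stress replicates 1, 2 and 3 and 746 without control replicate 2. A rule over 5 lists is looser than one over 6, so a higher count follows from fewer lists. The other ways of processing gave 243 to 370 stress-only and 52 to 72 control-only regions. The median RNA difference of hosts ranged from 0.01 after centring to 0.11 with a pseudocount of 0.1, and with that pseudocount 1 host was at least 2-fold higher and 2 were at least 2-fold lower. Without the RNA minimum, 379 hosts entered and none passed 2-fold in either direction. No paired analysis was possible because no result comes from a test across replicates. Unknown depth per library limits what the absence of a peak shows, and the lowest score of 50 sets which peaks are listed.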

Other observations

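Some hosts belong together by function in groups that were put together after the hosts had been seen, so their counts support nothing by themselves. Over all genes on chromosomes 1 to 19, 1.66% were hosts of a stress-only region and 0.263% of a control-only one. Of 32 insulin signalling genes 7 were hosts of a stress-only region at a promoter or exon and 0 of a control-only one. Besides Irs1, Irs2, Akt2 and Foxo3 these were Inppl1, which encodes the lipid phosphatase SHIP2 (percentiles 10.1, 70.4 and 49.9 in stress replicates 1, 2 and 3), Inpp5k, which encodes another phosphoinositide phosphatase (89.4, 41.3 and 87.4), and Phlpp1, which encodes a phosphatase that acts on AKT (19.2, 57.2 and 42.8). The median RNA difference of the 31 genes of the list with a mean of at least 1 FPKM was 0.12 on the log2 scale, against 0.08 for all genes.

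Of 10 sphingosine 1-phosphate genes 3 were hosts. They were Sphk1, which encodes a kinase that makes the lipid, with the start inside the region (7.68, 91.9 and 84.2), and the receptor genes S1pr1 (69.2, 31.6 and 95.4) and S1pr3 (47.1, 60.2 and 77.5), each on its last exon. S1pr1 was listed at 16.3 FPKM in control and 20.6 FPKM in stress. Of 4 genes of the nuclear kinases MSK and their relatives 2 were hosts, Rps6ka4 (32.5, 48.3 and 91.2) and Rps6ka5 (22.5, 24.8 and 41.0). Unc79 and Unc80, which encode auxiliary subunits of the sodium leak channel NALCN, were both hosts.

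A set of 4 genes hosted both a stress-only and a control-only region at a promoter or exon, namely Asap1, Dmgdh, Mkl1 and Olfr279. Promoter or exon regions found in all 6 lists were touched by 14 of the 379 hosts and by 450 of all 22835 genes. The share was thus higher among the hosts, and the genes were not matched for length.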
